A study of Mus musculus with 12 samples.

Results

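The comparison described here sets 2 drug regimens against each other in dystrophic muscle: spironolactone plus lisinopril (3 arrays) against prednisolone (3 arrays). The arrays were taken by their titles, and they are 6 of the 12 in the series. All mice were male, 6 weeks old, on the C57BL/10 background and of the genotype utrn+/-;mdx, so every group lacks full-length dystrophin and carries 1 mutant utrophin allele. Each array holds quadriceps RNA of 1 biological replicate. From 4 to 6 weeks of age, 1 group received 100 mg/kg per day spironolactone with 20 mg/kg per day lisinopril in medicated pellets. The other received 1.5 mg/kg per day prednisolone in drinking water. Beside them stand 3 untreated mice on normal chow and 3 mice given 200 mg/kg per day eplerenone with 20 mg/kg per day lisinopril in pellets. The labels name neither healthy mice nor drug-free pellets, and they give no time of day for dissection. The vehicle (pellet or water) and the drug therefore cannot be told apart. Of 65587 measured transcript clusters, the 30412 that the platform annotation pairs with exactly 1 gene symbol were tested.

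Prednisolone is a synthetic glucocorticoid. It enters the cell, binds the glucocorticoid receptor, and the receptor acts in the nucleus on metabolic, atrophy-related and inflammatory genes; glucocorticoids are a standard treatment of Duchenne muscular dystrophy. Spironolactone and eplerenone block the mineralocorticoid receptor, a close relative of that receptor, and lisinopril inhibits angiotensin-converting enzyme. Interferons act through cell surface receptors on Stat and Irf transcription factors, which switch on antiviral and antigen presentation genes. The circadian clock is a feedback loop in which Arntl pairs with Clock or Npas2 to activate Per, Cry and Nr1d genes, whose products repress it.

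The values are log2 signals, and a difference is the spironolactone plus lisinopril mean minus the prednisolone mean, given with its standard error (n = 3 arrays per group). The test was limma's moderated two-sided test with Benjamini-Hochberg adjustment over all 30412 clusters, and a cluster is called where the adjusted p is under 0.05. Between the regimens 250 clusters were called, 0.822% of those tested: 137 were higher with spironolactone plus lisinopril (0.45%) and 113 were lower (0.372%). Of the 137, 122 carry names other than predicted-gene or small RNA symbols, and of the 113, 70 do. In all 250 the 3 arrays of one regimen lay beyond the 3 of the other; such separation was seen in 24.0% of all clusters (10.2% higher, 13.8% lower). The split of the separated clusters turned with the scaling, from 3101 higher and 4189 lower to 3242 and 2912 after another quantile normalization and to 4629 and 2223 with equal array medians. The median difference over all clusters was -0.04. An unadjusted limma p under 0.05 was reached by 4953 of the 30412 clusters. Counts at that level in the gene lists below stand beside this share. A fold of at least 2, which the submitters used as their threshold, separated 166 clusters (0.546%; 93 higher, 73 lower), and 62 of these were called. The split into higher and lower calls moved with the scaling: it was 137 and 113 (54.8% higher) on the deposited values, 90 and 112 (44.6%) after another quantile normalization, and 285 and 87 (76.6%) once every array had the same median. The count also rested on single arrays. It was 25, 55 and 124 without spironolactone plus lisinopril array 1, 2 or 3, and 30, 23 and 223 without prednisolone array 1, 2 or 3. Across the full set and all 6 of these subsets 18 clusters stayed called, and among them were Arntl, Npas2, Per3, Dbp, Lgals9, Phf11b, Ret, Col1a1, Aldh1a1, Car14 and Erdr1.

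**Figure D1:**
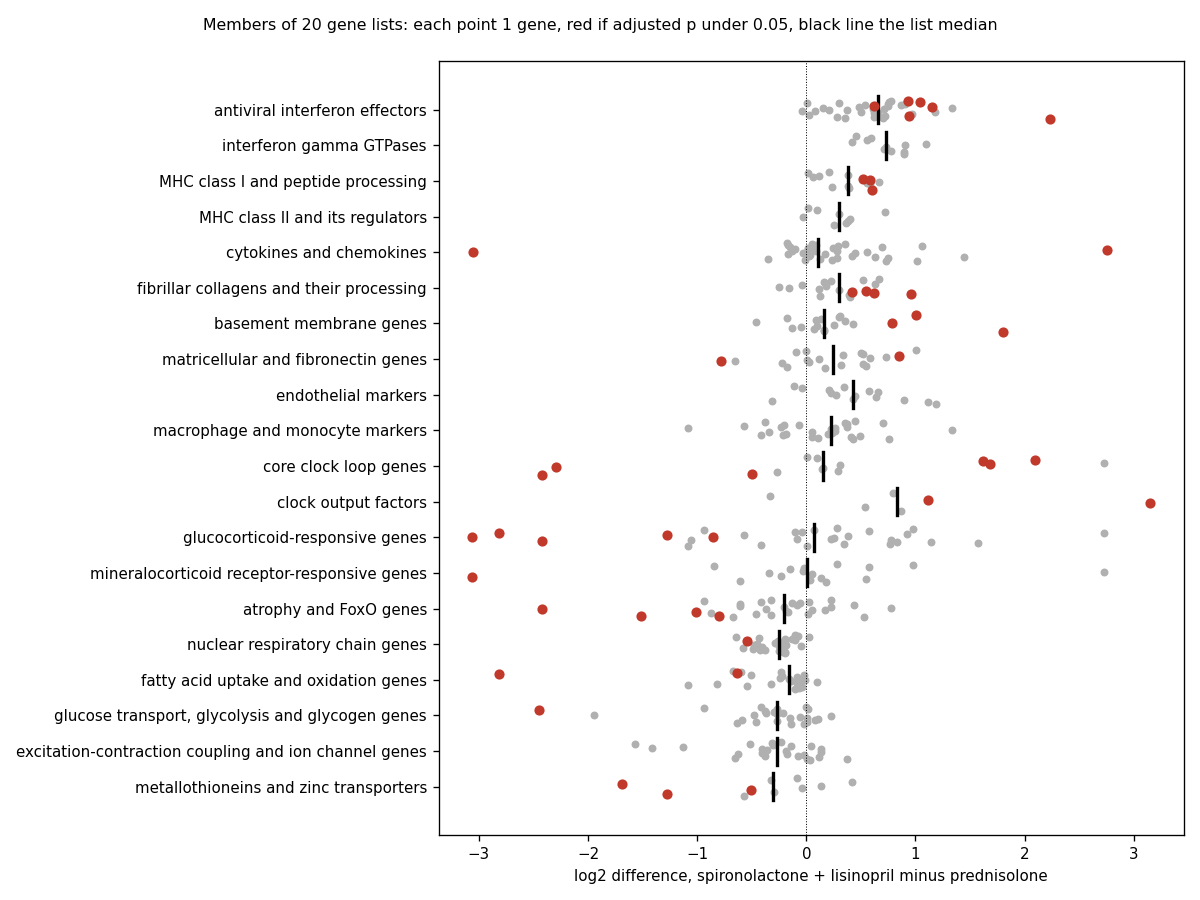
Log2 difference (x axis, spironolactone plus lisinopril minus prednisolone) of each measured member of 20 gene lists (rows); red points are called members, grey points are not, and the black line is the list median. Antiviral genes lie mostly to the right of 0 with a median of 0.66, respiratory chain genes mostly to the left with a median of -0.25, and clock genes on both sides.

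Genes of the circadian clock differed between the regimens in both directions. The labels give no time of day for dissection, so a difference in that time cannot be told apart from the drugs here. Dbp, a transcription factor that carries the clock's rhythm to its target genes, read 11.04, 11.15 and 10.80 with spironolactone plus lisinopril and 7.80, 8.03 and 7.72 with prednisolone. All 3 combination arrays were above all 3 prednisolone arrays. The difference was 3.15 ± 0.25 (8.87-fold; limma adjusted p = 0.000686). Arntl, the activator of the loop, went the other way, with 7.74, 7.71 and 8.55 against 10.41, 10.42 and 10.42. The prednisolone arrays were nearly identical and all above the combination arrays, at a difference of -2.42 ± 0.21 (adjusted p = 0.00128).

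The partners of Arntl were lower with the combination as well. Npas2 read 6.70, 6.97 and 7.71 against 9.65, 9.48 and 9.12 (-2.29 ± 0.24). Clock itself differed by only -0.50 ± 0.07, from 12.46, 12.34 and 12.36 to 12.93, 12.87 and 12.86, with no overlap. Of the Per, Cry and Nr1d genes Per3, Nr1d2 and Per2 were higher with the combination. Per3 read 8.28, 8.37 and 8.12 against 6.15, 6.16 and 6.19 (2.09 ± 0.17; adjusted p = 0.000686), and Nr1d2, a nuclear receptor that represses Arntl, read 12.64, 12.74 and 12.48 against 10.98, 11.03 and 10.81 (1.68 ± 0.21). Per2 was higher by 1.62 ± 0.28, although array 3 of the combination (6.95) stood well below arrays 1 and 2 (8.02 and 8.29). Hlf, a relative of Dbp, was higher by 1.11 ± 0.17.

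Of the 14 measured core clock genes 3 were higher, 3 were lower and 8 were not called. Of the 6 clock output factors 2 were higher. Per1, which is both a clock gene and a direct glucocorticoid target, lay at 2.73 ± 0.55 and just missed the threshold (adjusted p = 0.0516). Its values were 8.13, 8.64 and 9.85 against 6.19, 6.29 and 5.95. Nr1d1 lay at 0.31 ± 0.18 (adjusted p = 0.444) while its paralogue Nr1d2 passed, and Cry1 (-0.27 ± 0.13) and Cry2 (0.29 ± 0.17) were not called. Wee1, a cell cycle kinase known as a clock target, was singled out after its value was seen: it was higher by 1.06 ± 0.13 (adjusted p = 0.0105), and was lost without combination array 1 or prednisolone array 1 or 2 (up to 0.0526). Arntl, Npas2, Per3 and Dbp stayed called with any 1 of the 6 arrays left out. Nr1d2 was lost without combination array 1 or prednisolone array 2 (adjusted p up to 0.051), Clock without combination array 2 or prednisolone array 1 or 2 (up to 0.0765), Hlf without combination array 1 or 2 or prednisolone array 1 or 2 (up to 0.098), and Per2 kept its call only without combination array 3 (otherwise up to 0.146).

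Untreated muscle took a middle position for several of these genes. Dbp read 9.66, 8.76 and 8.96 in the untreated arrays and 10.54, 10.69 and 9.81 with eplerenone plus lisinopril, between the groups compared here. Against untreated muscle the combination differed by 1.87 ± 0.25 (adjusted p = 0.0282) and prednisolone by -1.28 ± 0.25 (adjusted p = 0.0167). Per3 likewise read 7.38, 6.69 and 6.95 untreated. Arntl read 8.68, 8.92 and 8.93 untreated, nearer to the combination than to prednisolone.

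**Figure D2:**
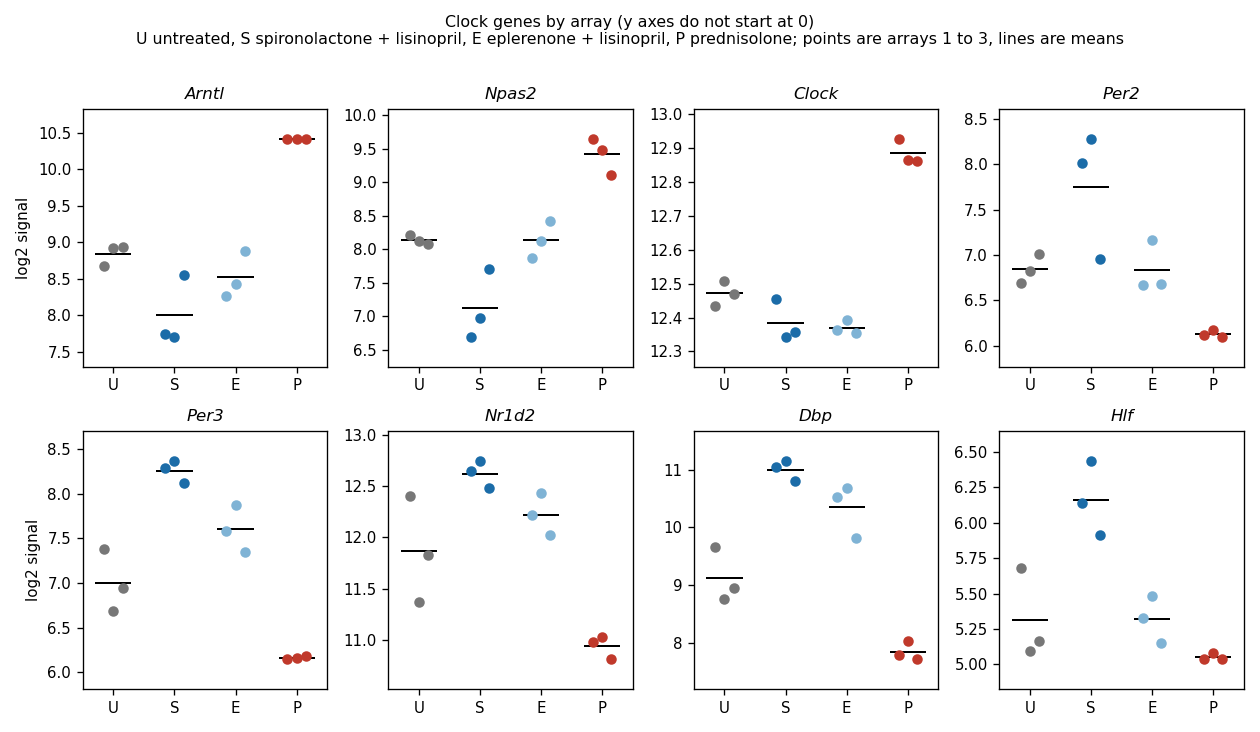
Log2 signal (y axis, a separate scale for each gene) of 8 called clock genes in each array of the 4 groups; points are arrays and lines are group means. Arntl, Npas2 and Clock are highest with prednisolone, while Per2, Per3, Nr1d2, Dbp and Hlf are highest with spironolactone plus lisinopril.

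The proteins Dbp, Tef and Hlf bind the D-box, and the promoter of Per3 is shown because it holds that motif. The stretch is chr4:151044766-151044915 on the minus strand of GRCm38.p6, from 250 to 101 bases before the start in RefSeq, with both matches to TTATGNAA in capitals.
Per3: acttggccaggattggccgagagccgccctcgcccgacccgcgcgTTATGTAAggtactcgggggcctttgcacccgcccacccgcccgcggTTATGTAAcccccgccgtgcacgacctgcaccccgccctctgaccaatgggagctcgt
The motif was searched on both strands of the 250 bases before the start. It stood in 3.23% of all 27025 gene windows, in 2 of the 17 windows of the clock lists (11.8%) and in 1 of the 7 of called clock genes. CACGTG, the E-box letters that Arntl with Clock binds, stood in 6.05% of all windows, in 4 of those 17 (23.5%) and in 0 of those 7.

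Antiviral genes induced by interferon were higher with spironolactone plus lisinopril than with prednisolone. Of the 36 measured antiviral effectors 6 were called, all higher, and the median difference was 0.66 against -0.04 over all clusters. The groups did not overlap for 27 of the 36, all higher with the combination, beside 10.2% of all clusters. The list median against untreated muscle was -0.48 with the combination, -1.22 with prednisolone and -0.18 with eplerenone plus lisinopril. For each of the 6 called genes the untreated mean lay above the combination mean. Bst2, which encodes tetherin and holds budding virus at the cell surface, showed the largest difference. It read 13.42, 12.87 and 13.40 with the combination against 11.30, 10.72 and 10.97 with prednisolone. The groups did not overlap, and the difference was 2.24 ± 0.27 (4.71-fold; adjusted p = 0.00802). Oasl2, an oligoadenylate synthetase-like protein, read 8.67, 8.33 and 8.62 against 7.32, 7.31 and 7.53 (1.15 ± 0.17). Eif2ak2, the kinase PKR that stops translation on double-stranded RNA, read 9.95, 9.47 and 9.83 against 8.87, 8.80 and 8.76 (0.94 ± 0.15). Trim30a (1.04 ± 0.20), Xaf1 (0.93 ± 0.18) and the poly-ADP-ribose polymerase gene Parp12 (0.62 ± 0.11) were also called. Oas2 and Ifit1 were not called, with differences of 1.33 and 0.97, and Isg15 lay at -0.04. With 1 array left out, Bst2 was lost without combination array 1 or prednisolone array 2 (adjusted p up to 0.0511), Oasl2 without combination array 1 or 3 or prednisolone array 1 or 2 (up to 0.118), and Eif2ak2 kept its call only without combination array 2 (otherwise up to 0.137). Trim30a, Xaf1 and Parp12 were lost whichever 1 of the 6 was left out (up to 0.169). The list held 0, 3 and 1 called genes without combination array 1, 2 or 3 and 1, 0 and 2 without prednisolone array 1, 2 or 3, while its median stayed between 0.54 and 0.81.

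Other genes known to respond to interferon were among the largest differences. Lgals9, the gene of galectin-9, a lectin that dampens T cell responses, read 13.00, 12.97 and 13.27 against 11.89, 11.84 and 11.95 (1.19 ± 0.11; adjusted p = 0.00128). Phf11b read 10.36, 10.39 and 10.64 against 9.29, 9.28 and 9.40 (1.14 ± 0.13; adjusted p = 0.00553). Both were separated without overlap, and both stayed called with any 1 array left out. Rnf213, a large ubiquitin ligase with antimicrobial function, was higher by 1.13 ± 0.23 and was lost whichever 1 of the 6 arrays was left out (adjusted p up to 0.19). Trim30d (1.09 ± 0.14), Ifi209 (1.12 ± 0.22), Phf11a (0.95 ± 0.15), Samhd1 (0.69 ± 0.11) and the death protease gene Casp8 (0.87 ± 0.15) were called too and were singled out after their values were seen. Trim30d was lost without combination array 1 or prednisolone array 2 (adjusted p up to 0.0607). Phf11a, Samhd1 and Casp8 kept their calls only without prednisolone array 3 (otherwise up to 0.118, 0.131 and 0.158), and Ifi209 only without combination array 2 (up to 0.186). Trim30a with Trim30d, and Phf11a with Phf11b, are close relatives whose probes may share signal.

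Upstream of these genes, 1 of 18 interferon receptor, Irf and Stat genes was called: Ifnar2, a subunit of the type I interferon receptor, was higher by 0.60 ± 0.11, a call lost whichever 1 of the 6 arrays was left out (adjusted p up to 0.169). The GTPases that interferon gamma induces were called by limma in 0 of 11 cases (8 at an unadjusted p under 0.05, all higher). All 11 differences were above 0, with a median of 0.73. Without overlap 8 of the 11 were higher, beside 10.2% of all clusters. Gvin1 lay at 1.10 ± 0.24 (adjusted p = 0.0588) and Gbp9 at 0.91 ± 0.27 (adjusted p = 0.133).

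The interferon-stimulated response element is the motif that Stat and Irf complexes bind, and 6 called genes that hold its core, GAAA followed after any 2 bases by GAAA, are shown with the 150 bases before their RefSeq starts (GRCm38.p6). Capitals mark the core on either strand, so that TTTC, any 2 bases and TTTC is the same motif read from the other strand. The stretches are chr8:71537473-71537622 (Bst2, minus strand), chr11:78984925-78985074 (Lgals9, minus), chr14:59341331-59341480 (Phf11b, minus), chr7:104465194-104465343 (Trim30a, minus), chr7:104507850-104507999 (Trim30d, minus) and chr2:122147537-122147686 (B2m, plus).
Bst2: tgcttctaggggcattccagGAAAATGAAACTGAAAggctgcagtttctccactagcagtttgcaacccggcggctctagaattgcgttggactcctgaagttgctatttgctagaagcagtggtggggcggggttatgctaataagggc
Lgals9: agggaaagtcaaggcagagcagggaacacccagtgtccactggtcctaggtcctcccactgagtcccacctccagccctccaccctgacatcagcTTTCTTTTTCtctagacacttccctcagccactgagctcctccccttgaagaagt
Phf11b: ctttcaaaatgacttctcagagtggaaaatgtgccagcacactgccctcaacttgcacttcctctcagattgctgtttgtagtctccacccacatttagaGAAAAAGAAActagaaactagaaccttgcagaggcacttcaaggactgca
Trim30a: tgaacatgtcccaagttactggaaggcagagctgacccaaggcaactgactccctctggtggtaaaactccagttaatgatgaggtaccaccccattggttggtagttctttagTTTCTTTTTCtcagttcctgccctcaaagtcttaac
Trim30d: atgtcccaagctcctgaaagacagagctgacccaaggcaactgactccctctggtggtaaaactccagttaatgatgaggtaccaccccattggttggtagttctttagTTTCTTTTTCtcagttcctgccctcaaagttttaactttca
B2m: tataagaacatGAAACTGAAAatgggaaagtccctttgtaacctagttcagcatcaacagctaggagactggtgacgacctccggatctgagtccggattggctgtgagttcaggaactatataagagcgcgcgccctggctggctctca
In Bst2 the 2 matches overlap, so that the capitals run from 130 to 115 bases before the start. Within 250 bases before the start, the core stood in 3.04% of all 27025 windows and in 10 of 26 windows of the antiviral list (38.5%). It stood in 7 of 103 windows of genes called higher with the combination (6.8%), the 7th being Phf11a, and in 0 of 59 windows of genes called lower.

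Of 14 measured genes of class I molecules and peptide processing 3 were called higher with spironolactone plus lisinopril, beside 0.45% of all clusters. None was called lower. Without overlap 7 of the 14 were higher, beside 10.2% of all clusters. B2m, the light chain of every class I molecule, read 19.19, 19.02 and 19.30 against 18.69, 18.42 and 18.60 (0.60 ± 0.09; adjusted p = 0.0226). The immunoproteasome subunits Psmb8 and Psmb10, which cut peptides for presentation, were higher by 0.52 ± 0.10 and 0.59 ± 0.10. B2m was lost without combination array 1 or 3 or prednisolone array 1 or 2 (adjusted p up to 0.118), Psmb10 in every case but the one without prednisolone array 3 (up to 0.158) and Psmb8 whichever 1 of the 6 was left out (up to 0.18). The 14 differences were all above 0, with a median of 0.39. Of 9 class II genes limma called 0 (1 at an unadjusted p under 0.05), H2-Eb1 lay at 0.72 ± 0.30 and H2-Aa at 0.38 ± 0.25, and no class II gene was separated without overlap.

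Chemokines and innate defence genes diverged. Cxcl9, which attracts activated T cells and is induced by interferon gamma, read 10.16, 9.31 and 11.22 with the combination and 7.60, 7.22 and 7.63 with prednisolone, a difference of 2.75 ± 0.51 (6.73-fold; adjusted p = 0.0428). Cxcl13, which attracts B cells, did the opposite, with 8.73, 7.65 and 9.80 against 12.57, 11.10 and 11.66 (-3.05 ± 0.60; adjusted p = 0.0475). The combination arrays of both genes were spread over more than 1 log2 unit, yet neither gene's groups overlapped. Of 38 cytokines and chemokines these were the only 2 called. Cxcl9 kept its call only without combination array 2 (adjusted p up to 0.169 otherwise) and Cxcl13 only without combination array 3 (up to 0.15). Il6 lay at 0.08 ± 0.27 and Il1b at 0.69 ± 0.95.

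Lcn2, a siderophore-binding protein of neutrophils and stressed tissue, had the largest negative difference of the called genes with a name. It read 5.57, 5.66 and 5.12 with the combination against 9.44, 8.12 and 7.97 with prednisolone (-3.06 ± 0.48; 8.33-fold; adjusted p = 0.0244). Untreated arrays were spread from 5.58 to 7.65 and eplerenone arrays lay between 5.29 and 5.61. In bulk tissue, fewer cells of a type and less RNA per cell cannot be told apart. Of 18 measured neutrophil markers Lcn2 was the 1 called, and 8 of the 18 lay above 0. Retnlg lay at 1.17 ± 0.66, S100a8 at -0.44 ± 1.19 and S100a9 at -0.45 ± 1.07. C7, a terminal complement component, differed by -2.60 ± 0.51 and so was lower with the combination, and Gpr65, a proton-sensing receptor of immune cells, was higher by 1.44 ± 0.27. Thy1, a T cell marker that fibroblasts and neurons also carry, was higher by 0.88 ± 0.16 and was the 1 called of 17 T and NK cell markers. Lcn2 and Gpr65 kept their calls only without prednisolone array 3 (adjusted p up to 0.0907 and 0.169 otherwise), C7 only without combination array 3 (up to 0.158) and Thy1 in no case (up to 0.168).

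**Figure D3:**
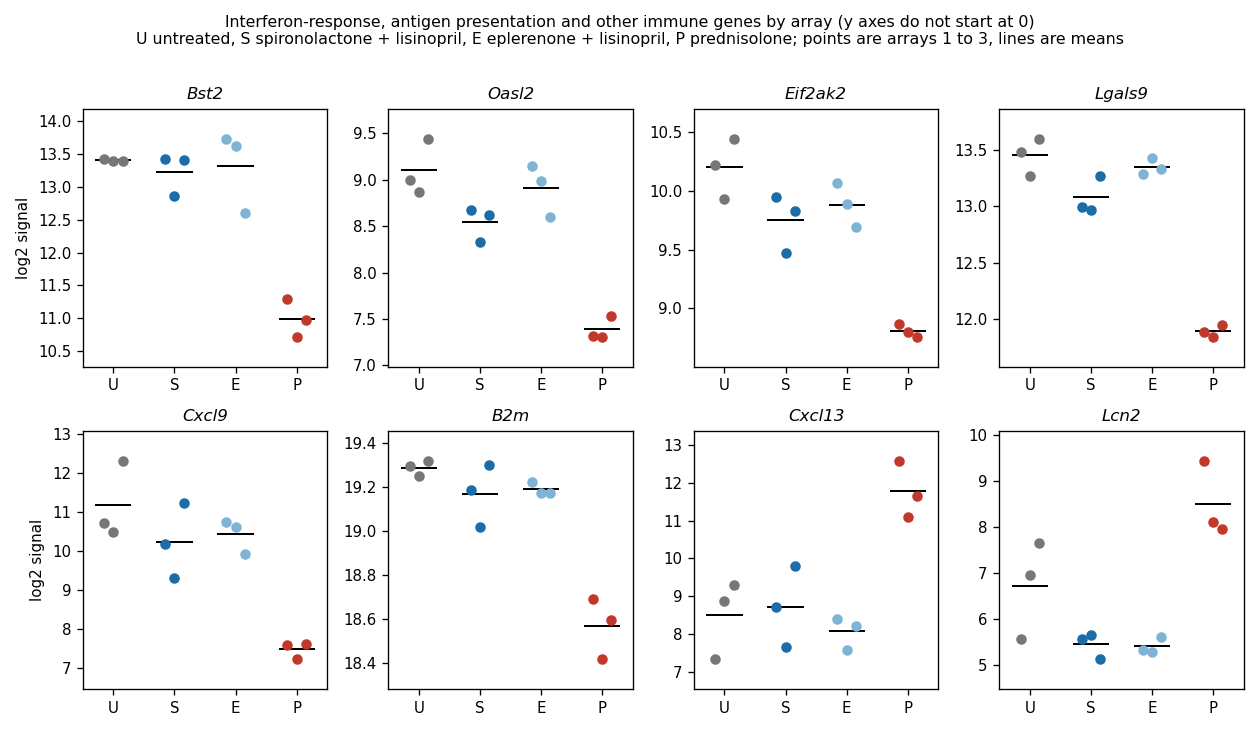
Log2 signal (y axis, a separate scale for each gene) of 8 called immune genes in each array of the 4 groups; points are arrays and lines are group means. Bst2, Oasl2, Eif2ak2, Lgals9, Cxcl9 and B2m are lowest with prednisolone, and Cxcl13 and Lcn2 are highest there.

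Of the called genes in the extracellular matrix lists 8 were higher with spironolactone plus lisinopril than with prednisolone and 1 was lower. Col1a1, the main chain of fibrillar collagen, read 16.78, 16.93 and 16.83 against 16.21, 16.20 and 16.28. The arrays within each regimen differed little, and the difference was 0.62 ± 0.07 (1.53-fold; adjusted p = 0.00639). It stayed called with any 1 array left out. Its partner chain Col1a2 (0.42 ± 0.08), Col3a1 (0.55 ± 0.10) and the fibril-associated Col14a1 (0.96 ± 0.18) were higher too, which made 4 of 19 measured fibrillar collagen and processing genes, with 0 lower and a median of 0.30. Without overlap 12 of the 19 were higher, beside 10.2% of all clusters. Of the genes in this list that fold or modify collagen, Serpinh1 lay at 0.66, P4ha1 at 0.63 and Lox at -0.25, and none of these 3 was called. Outside the list, Crtap (0.38 ± 0.07), part of the collagen prolyl hydroxylation complex, and the prolyl isomerase gene Fkbp14 (0.62 ± 0.11) were higher. Crtap lost its call whichever 1 of the 6 arrays was left out (adjusted p up to 0.158), and Fkbp14 kept it only without prednisolone array 3 (otherwise up to 0.144). All 5 of these genes were singled out after their values were seen. The matrix genes Mgp and Spock2, outside the lists and also picked afterwards, were called lower with the combination. Neither was among the 18 clusters that stayed called with any 1 array left out.

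Of 18 measured basement membrane genes 3 were higher and 0 lower, with a median of 0.16. Col15a1, a collagen between the basement membrane and the fibrils, read 10.37, 10.55 and 11.08 against 8.55, 9.03 and 9.01 (1.80 ± 0.25; 3.49-fold; adjusted p = 0.0156). Hspg2, the gene of perlecan, read 13.21, 13.09 and 13.24 against 12.27, 12.50 and 12.43 (0.79 ± 0.11), and the linker gene Nid2 was higher by 1.00 ± 0.19. In each of the 3 the regimens were separated. Postn, a matricellular protein of healing tissue, read 17.04, 16.97 and 17.15 against 16.07, 16.13 and 16.40 (0.85 ± 0.14), while elastin, Eln, was lower by 0.79 ± 0.15. These were the 2 called of 20 matricellular and fibronectin genes, and Thbs1 lay at 0.52 ± 0.41. Metalloproteinases and their inhibitors were called by limma in 0 of 16 cases (1 at an unadjusted p under 0.05). The same held for 0 of 18 genes of the TGF-beta pathway (4 at an unadjusted p under 0.05). Over all 30412 clusters 4953 reached that level.

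Among these matrix calls Col15a1 was lost without prednisolone array 1 or 2 (adjusted p up to 0.0766) and Hspg2 without combination array 1 or prednisolone array 1 or 2 (up to 0.0838). Col1a2 and Postn kept theirs only without prednisolone array 3 (up to 0.19 and 0.158 otherwise), Eln only without combination array 2 (up to 0.171), and Col3a1, Col14a1 and Nid2 in no case (up to 0.169).

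In the untreated and eplerenone arrays the means of the 8 genes of the matrix lists called higher lay nearer to the combination than to prednisolone. Eln lay about midway, with positions of 0.60 and 0.52 where 0 is the prednisolone mean and 1 the combination mean. Col1a1 read 16.90, 16.88 and 16.88 untreated and 17.14, 17.00 and 17.08 with eplerenone plus lisinopril. Against untreated muscle prednisolone differed by -0.66 (adjusted p = 0.00208) and the combination by -0.04 (adjusted p = 0.797). Col15a1 differed from untreated by -1.50 with prednisolone (adjusted p = 0.00839) and by 0.31 with the combination (adjusted p = 0.546).

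Ret, Papss2 and Erdr1 were among the largest positive differences. Ret, the receptor tyrosine kinase for glial-derived neurotrophic factors, read 8.62, 8.92 and 9.04 against 7.38, 7.68 and 7.55 (1.32 ± 0.14; adjusted p = 0.00433), and stayed called with any 1 array left out. Papss2, which makes the sulfate donor used for matrix glycans, was higher by 1.13 ± 0.21 but was lost whichever 1 of the 6 arrays was left out (adjusted p up to 0.169). Erdr1 had the largest difference of all, with 15.60, 15.29 and 14.64 against 12.11, 11.85 and 11.59 (3.33 ± 0.23; 10.0-fold; adjusted p = 0.000402). The predicted gene Gm21887, a near-identical copy, differed by 3.21 ± 0.23, so the signals of these copies may not be separate.

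Of 29 measured atrophy and FoxO genes 4 were lower with spironolactone plus lisinopril and 0 were higher. Fbxo32, the muscle ubiquitin ligase atrogin-1 that marks proteins for degradation, read 9.67, 9.82 and 11.12 with spironolactone plus lisinopril and 12.79, 12.54 and 12.55 with prednisolone. Combination array 3 was higher than arrays 1 and 2 but still below every prednisolone array, and the difference was -2.42 ± 0.36 (5.36-fold; adjusted p = 0.0191). Asb2, a ubiquitin ligase adaptor of muscle, read 10.18, 10.35 and 10.77 against 11.88, 12.01 and 11.95 (-1.51 ± 0.24). The transcriptional cofactor gene Cited2 (-1.01 ± 0.19) and Asb5 (-0.80 ± 0.15) were lower too. The median of the list was -0.20, and without overlap 13 were lower and 4 higher, beside 13.8% and 10.2% of all clusters. The second muscle ligase, Trim63, was not called at -0.94 ± 0.26 (adjusted p = 0.114), nor were Cdkn1a (-0.88) or the factor gene Foxo1 (0.78), the latter singled out after its value was seen. Fbxo32 and Asb2 kept their calls only without combination array 3 or prednisolone array 3 (adjusted p up to 0.0907 and 0.129 otherwise), and Cited2 and Asb5 in no case (up to 0.159).

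Of 29 measured glucocorticoid-responsive genes 5 were lower with the combination, 0 were higher and 24 were not called, with a median of 0.07. The 5 were Lcn2, Pdk4, Fbxo32, the metallothionein gene Mt2 and Lpin1, a phosphatidate phosphatase that also acts as a coactivator (-0.85 ± 0.14). Lpin1 kept its call only without prednisolone array 3 (adjusted p up to 0.134 otherwise). Several other classical targets were not called. Fkbp5, which feeds back on the receptor, read 7.40, 7.22 and 6.66 against 8.53, 7.96 and 7.95 (-1.05 ± 0.31; adjusted p = 0.135). Tsc22d3 lay on the other side at 0.98 ± 0.31 (adjusted p = 0.153), and Zbtb16 (0.28 ± 0.51), Klf15 (-0.08 ± 0.11) and Sgk1 (0.57 ± 0.28) had adjusted p from 0.35 to 0.83. Per1 had the highest difference of the list, at 2.73, and was not called. Over all clusters 0.372% were called lower and 0.45% higher. Without overlap 9 of the 29 were higher and 8 lower, beside 10.2% and 13.8% of all clusters. The list held 0, 1 and 1 called genes without combination array 1, 2 or 3 and 0, 0 and 3 without prednisolone array 1, 2 or 3.

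Genes of the receptors and enzymes that the drugs act on were not called. Nr3c1, the glucocorticoid receptor gene, lay at 0.53 ± 0.15 (adjusted p = 0.119) and Nr3c2, the mineralocorticoid receptor gene, at 0.02 ± 0.16. Hsd11b1, which regenerates active glucocorticoid, lay at -0.41 ± 0.45, and limma called 0 of 11 steroid receptor and corticosteroid enzyme genes (6 at an unadjusted p under 0.05, 5 of them higher). Of the 16 renin-angiotensin and kinin genes 1 was called: Agt, the angiotensin precursor, read 6.31, 6.62 and 6.44 against 7.64, 7.44 and 7.14 (-0.95 ± 0.17; adjusted p = 0.0396). The groups did not overlap, and the call held only without prednisolone array 3 (up to 0.158 otherwise). Ace, the target of lisinopril, lay at -0.52 ± 0.24 and Agtr1a at -0.06 ± 0.16. Of 18 mineralocorticoid receptor-responsive genes Lcn2 alone was called.

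Pdk4, Ppp1r3c and Plin5, genes of fuel handling, were lower with spironolactone plus lisinopril. Pdk4, the kinase that turns muscle from glucose to fat oxidation, read 13.75, 15.53 and 14.75 against 17.86, 16.86 and 17.76 (-2.82 ± 0.49; 7.04-fold; adjusted p = 0.0345). Both groups were spread over about 1 log2 unit or more without meeting. Ppp1r3c, which targets a phosphatase to glycogen and favours its storage, read 12.07, 11.86 and 13.20 against 15.56, 14.82 and 14.09 (-2.45 ± 0.43; 5.45-fold). Plin5, a lipid droplet coat protein of oxidative tissue, was lower by 0.63 ± 0.10. Pdk4 and Plin5 were 2 of 25 fatty acid genes (median -0.16, 24 of 25 below 0), and Ppp1r3c was 1 of 27 glucose and glycogen genes (median -0.26). Pfkfb3 and the insulin-responsive transporter gene Slc2a4 were not called, with differences of -1.94 (adjusted p = 0.266) and -0.94 (adjusted p = 0.05 when rounded), both singled out after their values were seen. Pdk4 kept its call only without combination array 2 (adjusted p up to 0.121 otherwise), Plin5 only without prednisolone array 3 (up to 0.133), and Ppp1r3c only without combination array 3 or prednisolone array 3 (up to 0.153).

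Differences of the nuclear respiratory chain genes were small and nearly all below 0. Ndufv1, a core subunit of complex I, read 10.92, 11.13 and 11.02 against 11.56, 11.65 and 11.49 (-0.54 ± 0.10; adjusted p = 0.0438) and was the 1 called of 28. It was lost whichever 1 of the 6 arrays was left out (adjusted p up to 0.184). Of the 28 differences 27 were below 0, with a median of -0.25, beside 58.9% of all clusters below 0. Without overlap 12 were lower and 0 higher, beside 13.8% and 10.2% of all clusters. Among the 12 were Cox7a1 (-0.58), Cox6a2 (-0.49) and Ndufa9 (-0.48), chosen after their values were seen. With the array medians made equal the median of the list was -0.19. Of 13 tricarboxylic acid cycle genes limma called 0 (2 at an unadjusted p under 0.05, both lower), with a median of -0.13.

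Of the 20 genes in the fast fibre and sarcomere list 1 was called. Myoz1, a Z-disc protein of fast fibres, read 14.62, 14.95 and 14.84 against 15.92, 15.89 and 15.51 (-0.97 ± 0.16; adjusted p = 0.0264). It held only without prednisolone array 3 (up to 0.146 otherwise). Of the 26 excitation-contraction coupling and ion channel genes limma called 0 (11 at an unadjusted p under 0.05, all lower), with a median of -0.27. Sln, which slows the calcium pump, lay at -1.57 ± 0.41 (adjusted p = 0.0954), Kcnj2 at -1.41 ± 0.36 and the calcium channel gene Cacna1s at -0.65 ± 0.17. Slow fibre genes varied within the regimens: Ankrd2 read 9.99, 10.10 and 7.07 with the combination, so that array 3 stood apart, and 10.55, 11.60 and 11.36 with prednisolone (-2.12 ± 0.68; adjusted p = 0.16). The median deviation of the 13 slow fibre genes from their 12-array means was 0.40, 0.37 and -0.87 in the combination arrays and -0.31, 0.73 and 0.80 in the prednisolone arrays. In the dystrophin complex, where limma called 0 of 23 genes (4 at an unadjusted p under 0.05), Dmd lay at -0.35 ± 0.18, Utrn at 0.24 ± 0.11 and Sgca at -0.58 ± 0.14. Myh3, the embryonic myosin gene of regenerating fibres, lay at 0.19 ± 0.58, and 0 of 19 regeneration genes were called (2 at an unadjusted p under 0.05).

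Several of the largest single differences belonged to enzymes with other roles. Aldh1a1, which makes retinoic acid, read 11.22, 11.08 and 11.17 against 13.49, 12.87 and 13.09 (-1.99 ± 0.19; 3.98-fold; adjusted p = 0.00201). Car14, a membrane carbonic anhydrase, read 7.56, 7.62 and 7.14 against 9.99, 9.91 and 9.11 (-2.23 ± 0.24; adjusted p = 0.00433). Both stayed called with any 1 array left out, and both had untreated arrays (10.39 to 10.70 and 7.18 to 7.39) on the side of the combination. Aldh1a1 was the 1 called of 22 retinoid genes. The lysine methyltransferase gene Mettl21e (-2.19 ± 0.30), the methyltransferase gene Inmt (-1.75 ± 0.25), the dipeptidase gene Dpep1 (-1.67 ± 0.31) and Odf3l2 (-2.44 ± 0.32) were also lower. Of these, Odf3l2 was lost without combination array 1 or prednisolone array 1 or 2 (adjusted p up to 0.0627), Inmt without combination array 1 or 2 or prednisolone array 2 (up to 0.0691), and Mettl21e and Dpep1 without combination array 1 or 2 or prednisolone array 1 or 2 (up to 0.085 and 0.166).

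Metallothioneins, which bind zinc and copper and are induced by glucocorticoids and metals, followed another pattern across the groups. Mt2 read 17.55, 18.34 and 18.17 with spironolactone plus lisinopril and 19.44, 19.17 and 19.28 with prednisolone (-1.28 ± 0.25; adjusted p = 0.0439). The untreated arrays, at 18.98, 19.46 and 19.62, lay with prednisolone, and the eplerenone arrays, at 17.93, 18.01 and 18.68, nearer to the combination. Prednisolone differed from untreated by -0.06 (adjusted p = 0.933) and the combination by -1.34 (adjusted p = 0.0948). Mt4 was lower by 0.50 ± 0.09 and also had its untreated mean beyond the prednisolone mean. Its signal was low, reaching down to 4.33, the lowest value of this list in the 6 arrays. Slc30a2, a zinc exporter, read 6.24, 6.15 and 5.96 against 8.31, 7.79 and 7.33 (-1.69 ± 0.24). They were 3 of 10 metallothionein and zinc transporter genes, and Mt1 lay at -0.57 ± 0.17 (adjusted p = 0.125). Slc30a2 kept its call only without combination array 3 or prednisolone array 3 (adjusted p up to 0.088 otherwise), and Mt2 and Mt4 in no case (up to 0.158 and 0.167).

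**Figure D4:**
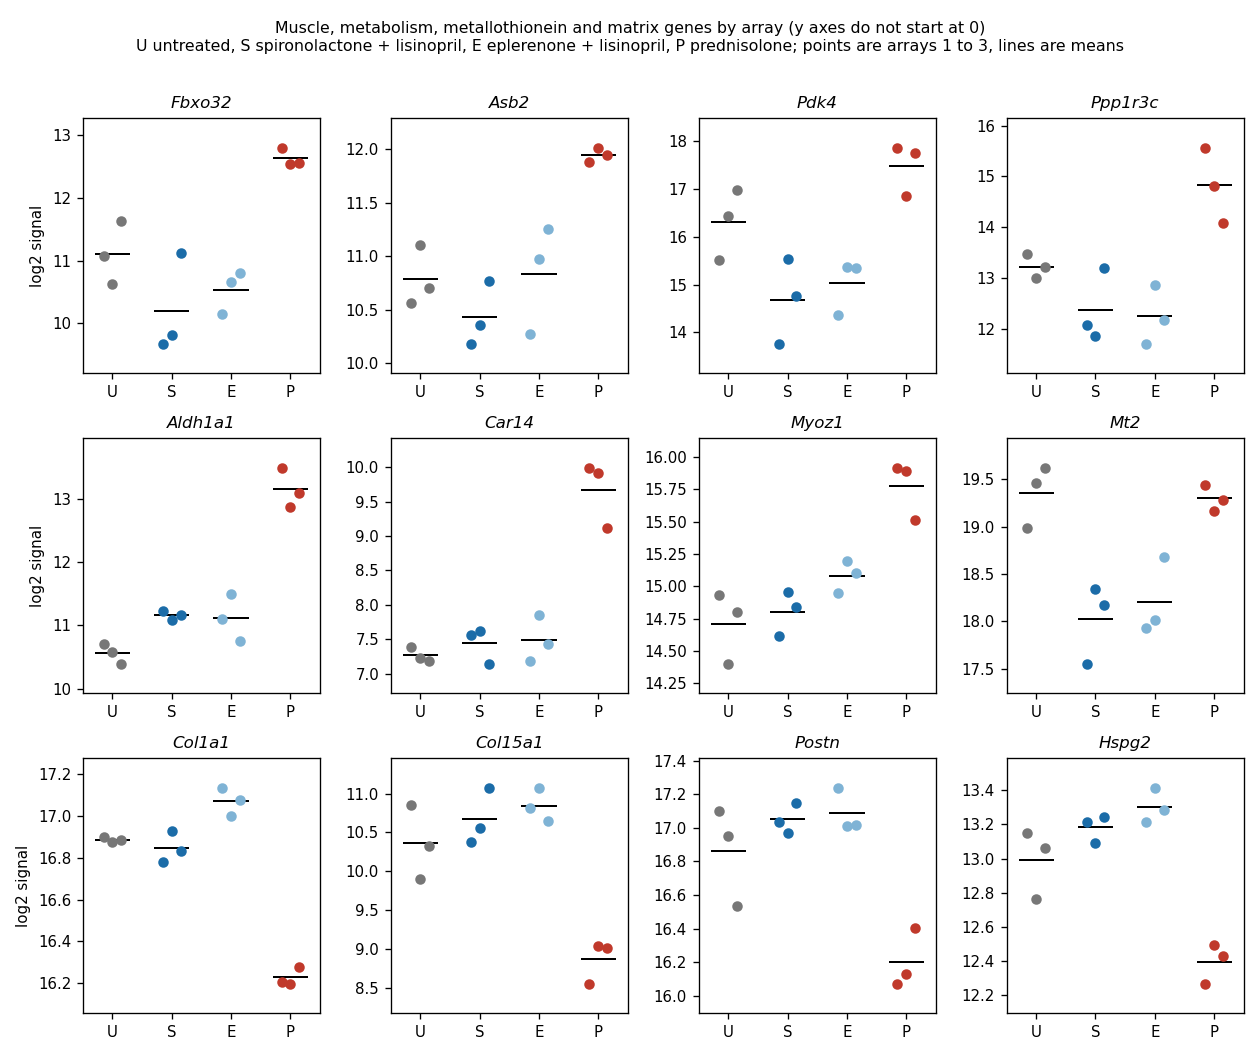
Log2 signal (y axis, a separate scale for each gene) of 12 called genes of muscle, metabolism, metal binding and matrix in each array of the 4 groups; points are arrays and lines are group means. Fbxo32, Asb2, Pdk4, Ppp1r3c, Aldh1a1, Car14 and Myoz1 are highest with prednisolone, Mt2 is high in both untreated and prednisolone arrays, and the 4 matrix genes in the bottom row are lowest with prednisolone.

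Marker genes were read to check the labelled tissue and the other cells it may hold. The 8 skeletal muscle markers were measured between 9.51 and 19.93, the highest value in the table. Their log2 summed signal ran from 21.92 in the lowest combination array to 22.06 in the highest prednisolone array, and limma called 0 of the 8 (4 at an unadjusted p under 0.05, all lower). Of 15 endothelial markers limma called 0 (6 at an unadjusted p under 0.05, all higher with the combination). Their log2 summed signal was 14.58 to 15.05 with the combination and 13.96 to 14.10 with prednisolone. Without overlap 10 of the 15 were higher, beside 10.2% of all clusters. Cdh5, the junction protein of endothelium, lay at 1.12 ± 0.26 (limma adjusted p = 0.0754). The endothelial signal moved with the basement membrane genes, and its part in that result was not tested.

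Of 29 macrophage and monocyte markers limma called 0 (5 higher and 3 lower at an unadjusted p under 0.05). Their summed signal was 18.99 to 19.13 against 18.95 to 19.19, so the regimens overlapped, with Cd68 at -0.19 ± 0.36 and Fcgr1, an interferon-inducible receptor, at 1.33 ± 0.35. T and NK cell markers summed to 10.13 to 10.62 against 9.87 to 9.93, with values no higher than 9.01, and mast cell markers to 12.82 to 14.04 against 12.07 to 12.65. Both sums were higher with the combination, as were the called interferon-induced genes, and their part in that result was not tested. The brightest genes weigh most in such sums. Over the T and NK markers the median difference was 0.09, and 3 of 17 were higher without overlap, beside 10.2% of all clusters. Over the mast cell markers it was 0.45, or 0.16 without combination array 3. Of these 10, 2 were higher and 1 lower without overlap, beside 10.2% and 13.8% of all clusters. The 10 epidermal markers were low in both regimens (8.78 to 8.96 against 9.20 to 9.26 when summed). Fibro-adipogenic and fibroblast markers summed to 18.39 to 19.01 against 18.48 to 18.57. Their median deviation was -0.29, -0.32 and 0.45 in the combination arrays and -0.08, -0.13 and -0.07 in the prednisolone arrays. The fibrillar collagen and processing genes summed to 18.08 to 18.24 against 17.59 to 17.71. The part of fibroblasts in the collagen result was not tested.

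Adipocyte markers varied within the regimens. Their median deviation was 0.42, -0.42 and 1.84 in the combination arrays and 1.12, -0.54 and -0.03 in the prednisolone arrays, and limma called 0 of 17 (1 at an unadjusted p under 0.05). Ucp1, the uncoupling protein of brown fat, read 7.09, 6.74 and 10.67 against 4.89, 4.78 and 5.16 (3.22 ± 0.77; adjusted p = 0.0773). Without combination array 3, which stood apart, the difference was 1.97 and passed the threshold (limma adjusted p = 0.00208); with any other of the 6 left out it did not pass (up to 0.239). Scd1, a fatty acid desaturase gene abundant in fat, read 17.68, 16.06 and 18.64 against 17.74, 13.84 and 15.79, with overlap.

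Of the 56 gene lists 21 held a called gene and 35 held none, with medians from -0.30 to 0.73 in the latter. Among these, the 26 immediate-early and mRNA decay genes had a median of 0.21 with 4 at an unadjusted p under 0.05, all higher with the combination, and Nr4a1 lay at 1.45 ± 0.60 (adjusted p = 0.263). The 22 cell cycle genes had a median of 0.30 (6 higher and 1 lower at an unadjusted p under 0.05), and the 26 proteasome subunit genes one of -0.06 (7 higher and 2 lower). Growth-signalling genes also gave 0 limma calls of 26 (3 higher and 3 lower at an unadjusted p under 0.05), where Igfbp3, which binds insulin-like growth factors, lay at -1.39 ± 0.40 (adjusted p = 0.124) and Igf1 at 0.43 ± 0.09 (adjusted p = 0.0624). All these counts stand beside 4953 of the 30412 tested clusters at an unadjusted p under 0.05.

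The untreated and eplerenone plus lisinopril arrays did not enter the difference that made the calls, but they did enter the estimate of its spread. Their levels were set beside the regimens. By the same test prednisolone differed from untreated muscle in 1942 clusters (6.39%), spironolactone plus lisinopril in 25 (0.0822%) and eplerenone plus lisinopril in 9 (0.0296%), comparisons that share the untreated arrays. Eplerenone plus lisinopril differed from prednisolone in 185 (0.608%). On a scale where the prednisolone mean is 0 and the combination mean is 1, the median position over the 250 called clusters was 0.98 for untreated and 0.82 for eplerenone plus lisinopril. The untreated mean lay on the combination's side of the midpoint in 226 of the 250 (90.4%) and the eplerenone mean in 231 (92.4%). Among clusters called higher the median difference from untreated was 0.01 with the combination and -0.66 with prednisolone; among those called lower it was -0.05 and 0.75. These positions share the prednisolone and combination arrays that made the calls, so they describe the called clusters and test nothing. Without combination array 3 the shares were 74.2% of 124 called clusters for untreated and 67.7% for eplerenone.

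The 24 clusters with untreated muscle on the prednisolone side of the midpoint included clock and metal genes. Hlf stood at 0.24 on that scale, Per3 at 0.40, Dbp at 0.41, Per2 at 0.44 and Pdk4 at 0.42, while Mt2 and the low-signal Mt4 stood at -0.04 each. For most of these genes eplerenone plus lisinopril lay nearer to the spironolactone combination than untreated muscle did, with Dbp at 0.79, Per3 at 0.69, Pdk4 at 0.88 and Mt2 at 0.85. Hlf and Per2 were the exceptions, at 0.24 and 0.44.

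**Figure D5:**
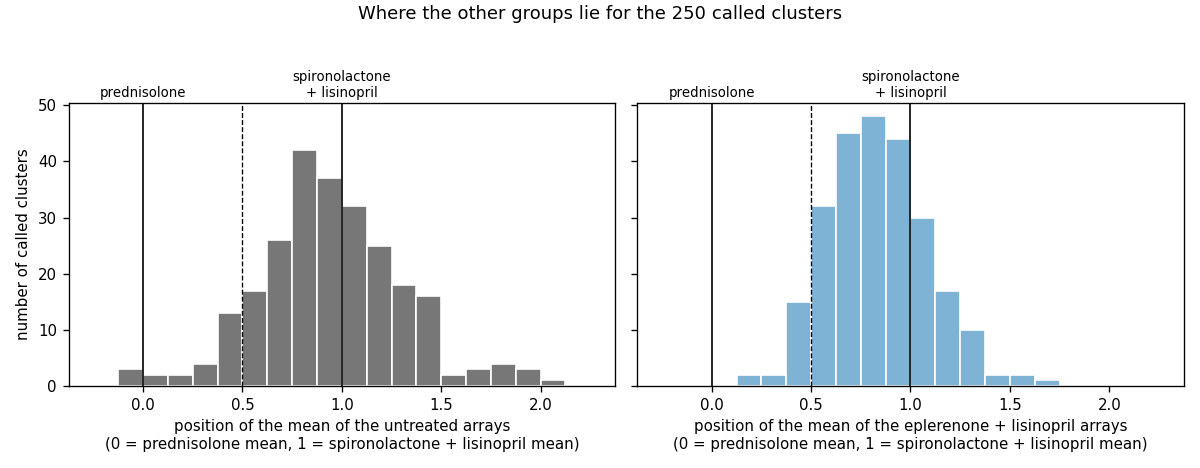
Histograms of where the untreated mean (left) and the eplerenone plus lisinopril mean (right) lie for the 250 called clusters, on a scale with the prednisolone mean at 0 and the spironolactone plus lisinopril mean at 1 (x axis); the y axis counts clusters and the dashed line is the midpoint. Most clusters lie to the right of the midpoint, with medians of 0.98 and 0.82.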

How the data were processed

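The deposited values are log2 signals of single-channel Affymetrix arrays (GeneChip WT PLUS labelling, per the labels' protocols). Per the submitters' processing notes, the authors used RMA, Affymetrix Expression Console and the Transcriptome Analysis Console. Their versions and the genome build are not stated in the sources at hand. Of each array's clusters 1.27% to 1.34% lie above 16, so the log2 scale was changed at an unstated step and folds hold for the deposited scale. The platform annotation gave exactly 1 symbol for 30412 of 65587 clusters.

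With limma 3.58.1 (R 4.3.3), 1 mean per group was fitted over the 12 arrays (eBayes without trend, 8 residual and 2.94 prior degrees of freedom, median standard error 0.129). The fit was tested on simulated data. With 3 arrays a side, an exact permutation test cannot go below p = 0.1, and the number of arrays limits the precision. Named were the 15 largest called differences in each direction without predicted or small RNA symbols, called members (or the 4 smallest p) of 56 gene lists, and 30 fixed genes. A gene in a list was read from its cluster with the highest mean. The comparison, lists and named genes were chosen with earlier results of these data known. Nothing says whether replicates were littermates. Promoter sequences are RefSeq's, GRCm38.p6.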

Additional observations from a re-analysis of the deposited data

How the results depend on the processing

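The count of called clusters (250) was 37 with the 6 arrays alone, 990 with array weights, 619 without dim clusters and 115 over all clusters, and ran from 23 to 223 with 1 of the 6 arrays left out. It stayed within 1.5 times with an intensity trend (244), a robust prior (226), another quantile normalization (202), equal array medians (372) and without the untreated arrays (286, chosen after seeing the data). Clusters with a fold of 2 (166) numbered 309 over all clusters, and 957 reached a fold of 1.5; with 1 array left out the range was 173 to 224. Clusters without overlap (7290) numbered 4524 without dim clusters, 13275 over all clusters and 9367 to 11933 with 1 array left out. Of the genes under the naming rule 59 were called, against 15 with the 6 arrays alone, 89 with array weights, 27 over all clusters, and 11 to 36 with 1 array left out. Calls among list members (46) numbered 10 with the 6 arrays alone, 102 with array weights, 82 without dim clusters, 19 over all clusters, and 6 to 28 with 1 array left out. The share of called clusters with untreated muscle on the combination's side (90.4%) was 82.7% with array weights, 93.9% over all clusters and 74.2% to 95.5% with 1 array left out. For eplerenone (92.4%) it was 97.3% with the 6 arrays alone, 83.4% with array weights, 86.4% without dim clusters and 67.7% to 100.0% with 1 array left out. None of the 59 called genes changed the sign of its difference under the 16 settings tried. Their groups did not overlap, so only another quantile normalization and equal array medians could have changed it. Of the list medians 16 changed sign under at least 1 setting, among them retinoid, adipocyte, neutrophil and fast fibre genes. The causes were not tested. The labels number the replicates. Deviations of same-numbered arrays from their group means had correlations of -0.088, 0.14 and -0.136. Those of differently numbered arrays ran from -0.116 to 0.192. With 3 arrays a group these values cannot show whether the numbers pair the mice. With the replicate block 75 clusters, 28 named genes and 19 list members were called. Depth does not apply to arrays: 3 per group and a signal near the top or bottom of the scale limit what can be seen.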
